A study of Mus musculus with 2 samples.

Results

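Csf1, Il34, Csf1r, Csf2ra and Csf2rb encode ligands of the CSF1 receptor, that receptor, and chains of the GM-CSF receptor. They were chosen by name, as 5 of the 21887 protein-coding genes in the gene table used. Their chromatin was read from droplet-based single-nucleus ATAC-seq, in which a transposase cuts accessible DNA and each cut piece, a fragment, is assigned to a nucleus by its barcode. The nuclei came from untreated male mice of 8 to 10 weeks, 1 mouse of genotype Spta wt/wt and 1 littermate of genotype Spta sph/sph, whose Spta gene encodes erythroid alpha-spectrin. Liver cells other than hepatocytes were collected after collagenase perfusion and enriched with magnetic beads for F4/80, a macrophage surface protein. Barcodes end in suffix 1 or 2, and no label or file used here pairs a suffix with a genotype, so values are given for library 1 and library 2, always in that order where a pair is given, and no genotype is compared. With 1 library per suffix there are no replicates. No statistical test was run, and every interval is a 95% interval that covers counting error only.

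CSF1 and IL-34 are alternative ligands of the receptor tyrosine kinase CSF1R, which macrophages need for survival and proliferation. In the liver, stellate and endothelial cells lie close to Kupffer cells, the resident macrophages, and are known as sources of CSF1 and other niche signals. CSF2RA is the alpha chain of the receptor for GM-CSF, and CSF2RB is the beta chain that it shares with the receptors for IL-3 and IL-5.

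The libraries held 11401694 and 21656110 fragments, and the deposited table called 637 and 575 barcodes as cells, of which 609 and 562 passed further filters. The labels give a target of 8000 nuclei. No cell barcode was shared. Library 2 stood apart in 3 ways: 56.2% of its fragments lay in called cells, against 83.2% in library 1, its called cells had 53.7% of their fragments in peaks as a median, against 72.1%, and 12.1% of the fragments of filtered cells lay in pile-ups against 0.649%. A pile-up is a 20 kb stretch where a single cell has 10 fragments or more and exceeds its expected number 10 times or more. Clusters built without the chromatin around the 5 genes gave 232 and 270 Kupffer-like, 122 and 133 endothelial-like, and 66 and 27 stellate or fibroblast-like cells in library 1 and library 2, named from markers such as Clec4f, Stab2 and Lrat. Library 1 also held 27 hepatocyte-like cells and library 2 held 1, which was not used. Clusters 2, 5 and 7 were left without a name, with 54 and 89, 102 and 0, and 6 and 42 cells. Kupffer-like cells of library 1 lay mostly in cluster 1 (217 of 232 cells) and those of library 2 in cluster 0. Endothelial-like cells were split likewise, with 121 of 122 cells of library 1 in cluster 4 and 132 of 133 of library 2 in cluster 3. The 10 Kupffer markers summed to 890 and 476 fragments per 1000000 of the class (CPM) in Kupffer-like cells of library 1 and library 2, 123 and 112 CPM in endothelial-like cells, and 140 and 186 CPM in stellate-like cells. The 12 endothelial markers summed to 581 and 485 CPM in Kupffer-like cells, and 2202 and 1268 CPM in endothelial-like cells. When each cell was classed by its own marker fragments instead, 169 of the 232 and 105 of the 270 Kupffer-like cells kept that class. So did 100 and 89 endothelial-like and 56 and 20 stellate-like cells.

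Sequences just upstream are shown for Csf1, a ligand gene, and Csf2ra, a receptor gene, the only 2 of the 5 genes in the promoter table used. Both genes lie on the minus strand, and the bases printed lie before the outer end of each gene in RefSeq (GRCm38.p6), 250 bases at chr3:107760470-107760719 for Csf1 and 207 bases at chr19:61228462-61228668 for Csf2ra, written 5′ to 3′. The promoter table of the same build sets the start of Csf2ra 43 bases inside the gene, and that stretch is not printed. Capitals mark matches to GGGCGG, a motif of SP and KLF factors, in Csf1, and to TGACGTCA, a motif of CREB and ATF factors, in Csf2ra.
Csf1: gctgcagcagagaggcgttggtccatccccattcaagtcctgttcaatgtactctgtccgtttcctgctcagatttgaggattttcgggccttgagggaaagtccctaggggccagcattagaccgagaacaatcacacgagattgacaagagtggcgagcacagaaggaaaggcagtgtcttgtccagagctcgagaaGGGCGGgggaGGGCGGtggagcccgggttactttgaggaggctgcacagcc
Csf2ra: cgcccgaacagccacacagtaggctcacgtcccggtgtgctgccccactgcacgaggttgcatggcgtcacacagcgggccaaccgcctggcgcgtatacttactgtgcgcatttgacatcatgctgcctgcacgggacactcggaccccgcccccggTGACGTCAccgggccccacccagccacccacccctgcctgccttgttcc
Motifs were searched on both strands of the 300 bases that end 50 bases after the start in that table. The Csf1 promoter held 2 matches to GGGCGG, which 35.6% of 32817 promoters of that length held, and 1 to the NF-kappaB motif, which 1.63% held. The Csf2ra promoter held 1 match to TGACGTCA (1.79% of promoters), 1 to GGGCGG and 2 to GAGGAA, a motif of PU.1 and other ETS factors (28.3%). Both GAGGAA matches lie in the stretch inside the gene and so outside the bases printed. The AP-1 motif TGANTCA, the C/EBP motif TTGCNNAA, the RUNX motif TGTGGT, the TATA box motif TATAAA and the CCAAT box motif CCAAT had no match in either. A match of letters is a description and not a bound site.

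Over the 300 bases of the Csf1 promoter, Kupffer-like cells had 11 fragments in library 1 and 9 in library 2, or 3.87 CPM (1.93 to 6.92) and 2.35 CPM (1.07 to 4.45). Endothelial-like cells had 28 and 18 fragments, or 18.2 CPM (12.1 to 26.3) and 9.01 CPM (5.34 to 14.2). Stellate-like cells had 16 and 6, or 20.5 CPM (11.7 to 33.3) and 9.14 CPM (3.35 to 19.9). They overlapped endothelial-like cells in both libraries and Kupffer-like cells in library 2 alone. The Csf1 promoter was thus higher in endothelial-like than in Kupffer-like cells of both libraries, with intervals that did not overlap. At the Csf2ra promoter the order was the other way round. Kupffer-like cells had 24 and 45 fragments, or 8.44 CPM (5.41 to 12.6) and 11.7 CPM (8.56 to 15.7), and endothelial-like cells 1 and 4, or 0.650 CPM (0.0164 to 3.62) and 2.00 CPM (0.546 to 5.13), without overlap. Stellate-like cells had 2 and 1 fragments, or 2.56 CPM (0.310 to 9.26), which overlapped Kupffer-like cells of library 1, and 1.52 CPM (0.0386 to 8.49), which did not in library 2.

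Counted over the whole gene, the ligand genes were most accessible in stellate-like cells. Levels are fragments over the gene body and 2 kb on each side, scaled to 1000000 fragments of the class. In stellate-like cells Csf1 stood at 114 CPM (91.6 to 140) and 71.6 CPM (52.6 to 95.2). In endothelial-like cells it stood at 55.9 CPM (44.7 to 69.0) and 34.5 CPM (26.9 to 43.7). Kupffer-like cells had 19.3 CPM (14.6 to 25.2) and 14.1 CPM (10.6 to 18.4), and hepatocyte-like cells of library 1 had 20.01 CPM (9.15 to 38.0). Stellate-like, endothelial-like and Kupffer-like cells followed each other in this order in both libraries without overlap of neighbouring intervals, whereas Kupffer-like and hepatocyte-like cells overlapped.

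Il34 showed a wider spread. It stood at 169 CPM (142 to 201) and 184 CPM (153 to 220) in stellate-like cells, at 53.3 CPM (42.4 to 66.1) and 45.5 CPM (36.7 to 55.9) in endothelial-like cells, and at 10.2 CPM (6.83 to 14.7) and 9.38 CPM (6.57 to 12.99) in Kupffer-like cells. Hepatocyte-like cells of library 1, with 28.9 CPM (15.4 to 49.4), overlapped endothelial-like cells. A single stellate-like cell of library 2 held 32 of the 121 Il34 fragments of its class, and with pile-ups masked the level there was 176 CPM. Per kb of window, stellate-like cells of library 1 had 4.87 CPM for Csf1 and 2.48 CPM for Il34, and Kupffer-like cells 0.826 and 0.150 CPM. The window of Il34 shares 3.57 kb with that of its neighbour Mtss2, where between 0.826% and 4.88% of the Il34 fragments of stellate-like and endothelial-like cells lay.

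**Figure D1:**
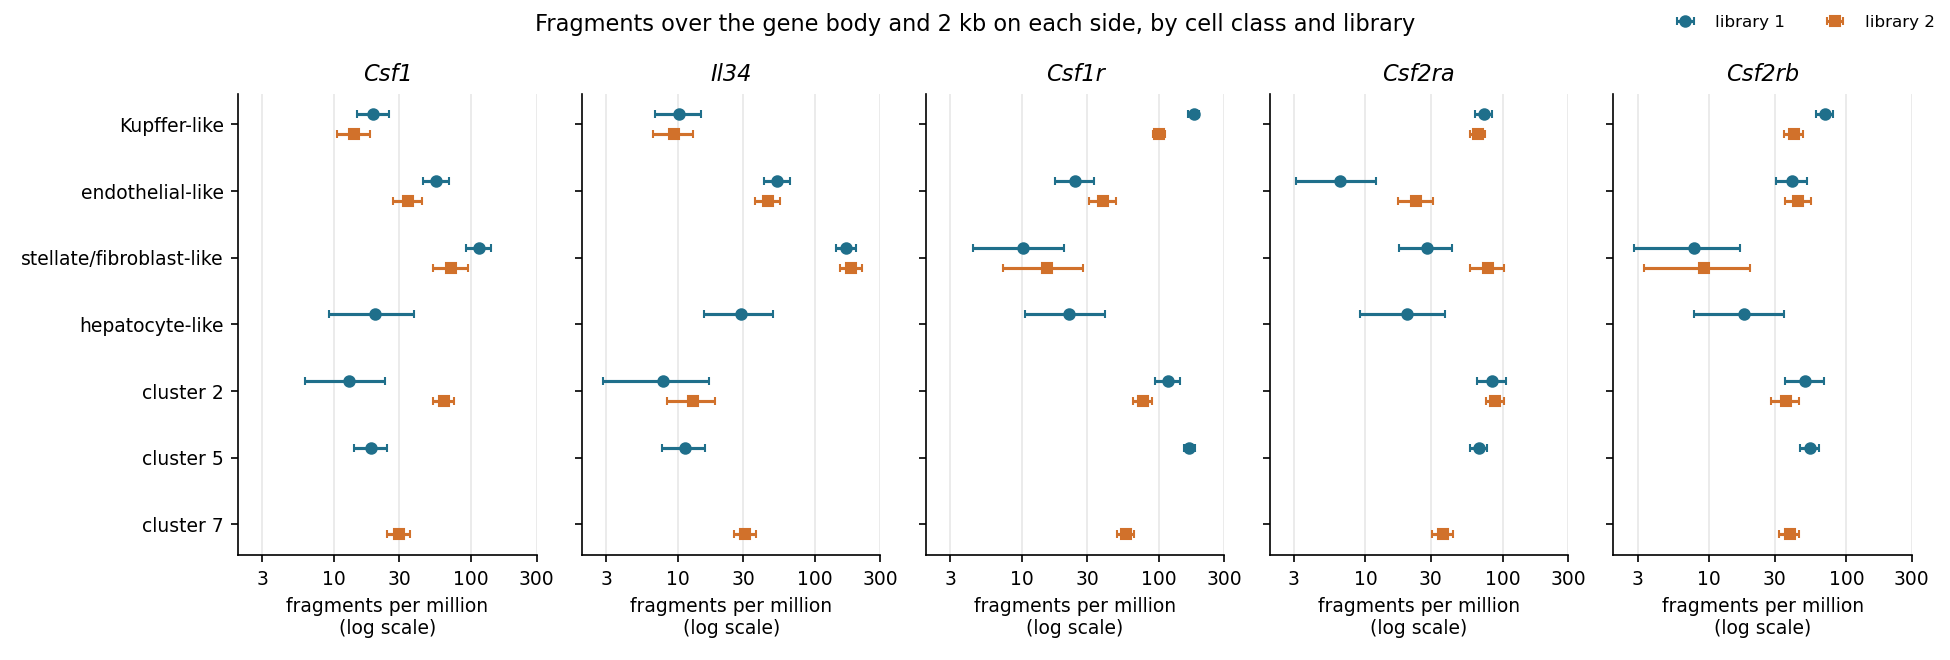
Fragments over each gene body and 2 kb on each side in CPM (log axis), by cell class or unnamed cluster; circles are library 1, squares library 2 and bars exact Poisson 95% intervals. Csf1 and Il34 are highest in stellate-like cells and lower in Kupffer-like than in endothelial-like cells, and Csf1r is higher in Kupffer-like cells, at 180 and 100.3 CPM, than in endothelial-like, stellate-like or hepatocyte-like cells.

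Within the genes, 1 kb tiles showed where the ligands were open. Kupffer-like, endothelial-like and stellate-like cells shared the fullest Csf1 tile, whereas the fullest Il34 tile differed between endothelial-like and stellate-like cells. The fullest Csf1 tile, chr3:107760001-107761000, holds the annotated start and 41.4% of the fragments of all filtered cells over the gene. It had 46 fragments (59.0 CPM, 43.2 to 78.6) and 14 fragments (21.3 CPM, 11.7 to 35.8) in stellate-like cells, and 50 (32.5 CPM, 24.1 to 42.8) and 39 (19.5 CPM, 13.9 to 26.7) in endothelial-like cells. Kupffer-like cells had 34 (11.96 CPM, 8.28 to 16.7) and 22 (5.73 CPM, 3.59 to 8.68), below both other classes without overlap, whereas stellate-like and endothelial-like cells overlapped in library 2. The next fullest Csf1 tile, chr3:107743001-107744000, lies within the gene near its far end and was nearly empty in Kupffer-like cells, with 0 and 1 fragments. Endothelial-like cells had 13 and 7 fragments there, or 8.45 CPM (4.50 to 14.4) and 3.50 CPM (1.41 to 7.22), and stellate-like cells 14 and 11, or 17.9 CPM (9.81 to 30.1) and 16.8 CPM (8.37 to 29.98). The interval of the 0 in Kupffer-like cells of library 1 reached 1.30 CPM. The third tile, chr3:107758001-107759000, had 11 fragments (14.1 CPM, 7.04 to 25.2) and 1 fragment (1.52 CPM, 0.0386 to 8.49) in stellate-like cells, with intervals that overlapped, and 2 and 9 fragments in Kupffer-like cells.

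For Il34 the 2 fullest tiles were filled differently by the classes. The tile chr8:110761001-110762000 had 26 fragments (16.9 CPM, 11.0 to 24.7) and 18 fragments (9.01 CPM, 5.34 to 14.2) in endothelial-like cells, and 0 and 1 in Kupffer-like cells. Stellate-like cells had 10 (12.8 CPM, 6.15 to 23.6) and 5 (7.62 CPM, 2.47 to 17.8) there and overlapped endothelial-like cells. The tile chr8:110774001-110775000, centred 32.7 kb from the lower-coordinate end against 19.7 kb for the first, had 19 fragments (24.4 CPM, 14.7 to 38.0) and 18 fragments (27.4 CPM, 16.3 to 43.3) in stellate-like cells, from 16 and 11 cells. Endothelial-like cells had 3 fragments (1.95 CPM, 0.402 to 5.70) and 0 there, below stellate-like cells without overlap. Kupffer-like cells had none in either library, with intervals that reached 1.30 and 0.961 CPM. A tile between them, chr8:110772001-110773000, had 12 and 12 fragments in stellate-like cells and 0 in Kupffer-like and endothelial-like cells of both libraries, and was picked after its values were seen. The third tile, chr8:110750001-110751000, had 2 to 7 fragments in Kupffer-like, endothelial-like and stellate-like cells of each library.

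**Figure D2:**
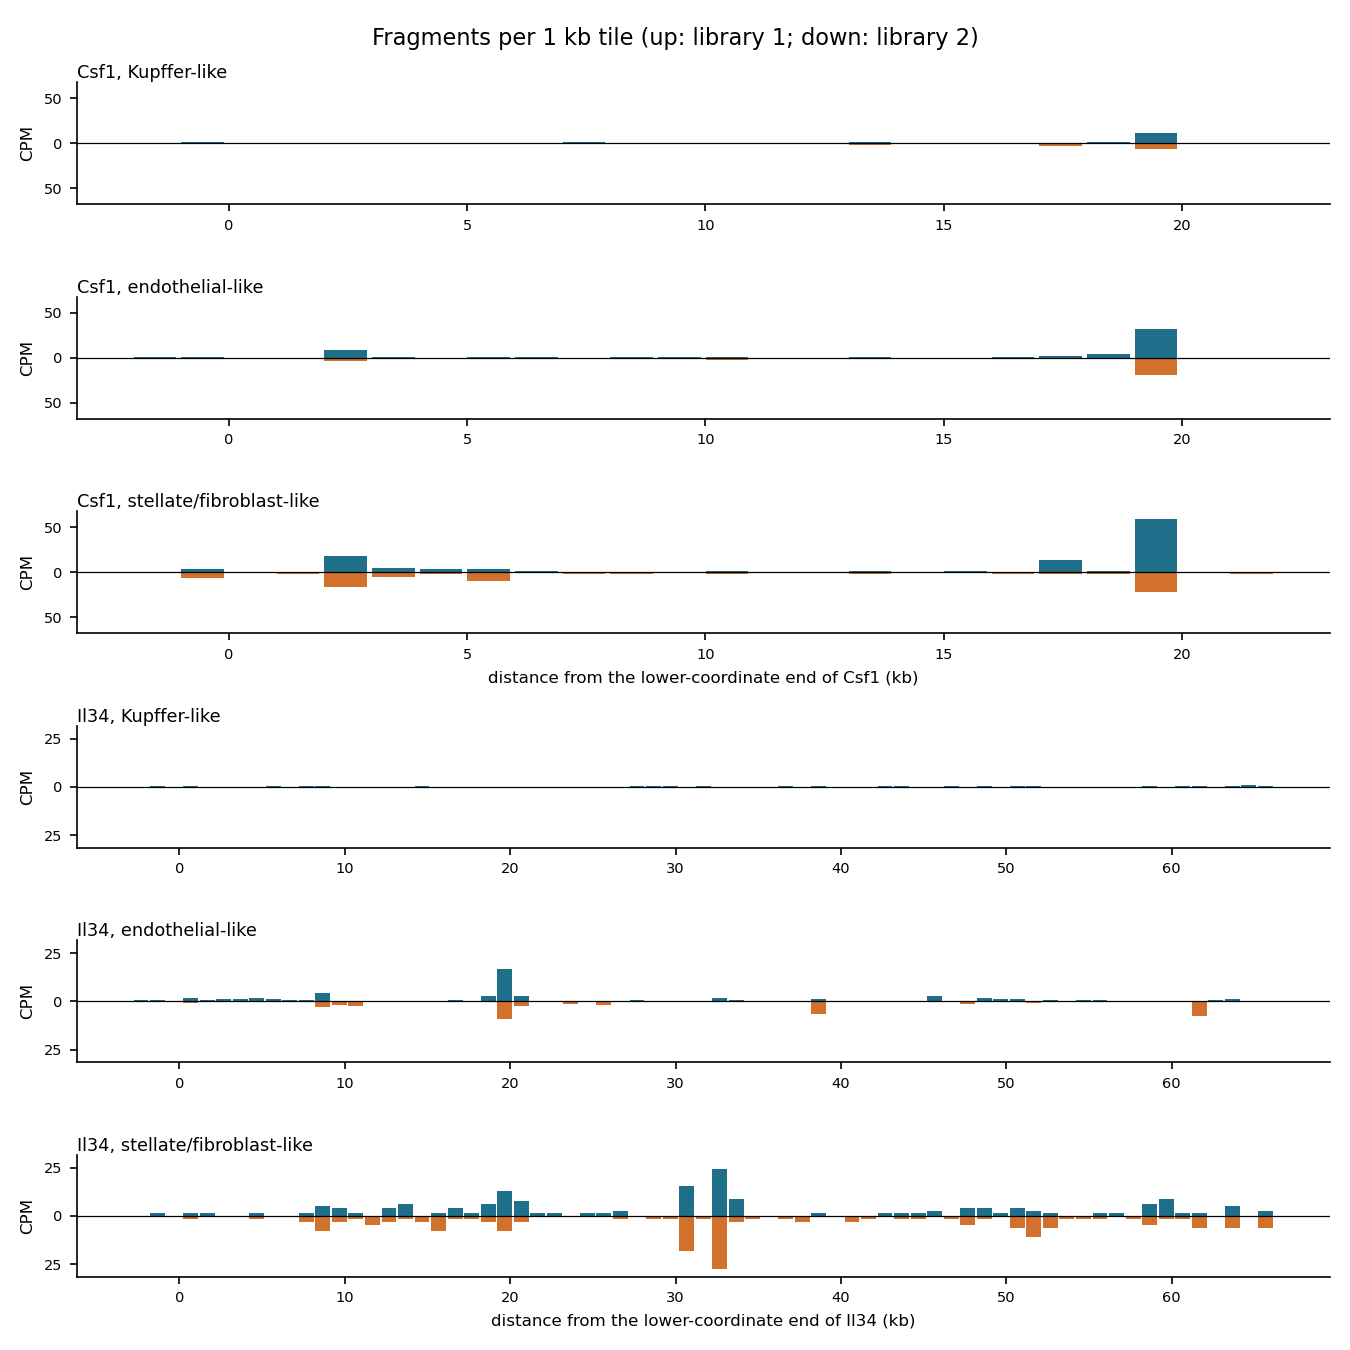
Fragments per 1 kb tile over Csf1 and Il34 in CPM against the distance in kb from the lower-coordinate end of the gene, with library 1 drawn upward and library 2 downward; Csf1 starts at the right. The Il34 tile at 19.7 kb is the fullest of endothelial-like cells and that at 32.7 kb the fullest of stellate-like cells, and Kupffer-like cells have 0 or 1 fragments in both.

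Csf1r had the reverse order. Kupffer-like cells had 180 CPM (165 to 196) and 100.3 CPM (90.6 to 111). Endothelial-like cells had 24.7 CPM (17.5 to 33.9) and 39.0 CPM (30.9 to 48.7), stellate-like cells 10.3 CPM (4.43 to 20.2) and 15.2 CPM (7.31 to 28.0), and hepatocyte-like cells of library 1 22.2 CPM (10.7 to 40.9). Kupffer-like cells overlapped none of these within a library. With each cell thinned to 5000 fragments, 47.8% (40.7 to 54.9%) and 34.3% (28.3 to 40.6%) of Kupffer-like cells had a Csf1r fragment (exact Clopper-Pearson intervals). In endothelial-like cells it was 9.28% (4.33 to 16.9%) and 19.2% (12.6 to 27.4%). In stellate-like cells it was 4% in both libraries, from 2 of 50 cells (0.488 to 13.7%) and 1 of 25 (0.101 to 20.4%), which overlapped endothelial-like cells. Thinning left out 31 and 28 shallower Kupffer-like, 25 and 13 endothelial-like and 16 and 2 stellate-like cells. Unthinned, 70.7% and 57.0% of Kupffer-like cells had a Csf1r fragment, at medians of 12618 and 12041.5 fragments per cell.

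Csf2ra was high in Kupffer-like cells of both libraries, at 72.8 CPM (63.2 to 83.4) and 66.2 CPM (58.3 to 74.9). Endothelial-like cells had 6.50 CPM (3.12 to 11.9) in library 1, from 10 fragments in 10 cells, and 23.5 CPM (17.3 to 31.3) in library 2, from 47 fragments in 27 cells. Stellate-like cells had 28.2 CPM (17.7 to 42.7) and 77.7 CPM (57.8 to 102), where they overlapped Kupffer-like cells. Csf2rb divided the classes differently. Kupffer-like cells had 69.7 CPM (60.3 to 80.1) and 41.2 CPM (35.0 to 48.1), endothelial-like cells 40.3 CPM (30.9 to 51.6) and 44.5 CPM (35.8 to 54.8), and stellate-like cells 7.69 CPM (2.82 to 16.7) and 9.14 CPM (3.35 to 19.9), from 6 fragments in each library. Kupffer-like and endothelial-like cells thus overlapped for Csf2rb in library 2 and not in library 1. Per kb of window, Kupffer-like cells of library 1 had 6.08 CPM for Csf1r, 4.77 CPM for Csf2ra and 2.39 CPM for Csf2rb.

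The fullest Csf1r tile, chr18:61108001-61109000, lies inside the gene, centred 2.93 kb from its lower-coordinate end. It had 108 and 104 fragments in Kupffer-like cells, or 38.0 CPM (31.2 to 45.9) and 27.1 CPM (22.1 to 32.8). Endothelial-like cells had 12 (7.80 CPM, 4.03 to 13.6) and 13 (6.51 CPM, 3.46 to 11.1) there, and stellate-like cells 2 (2.56 CPM, 0.310 to 9.26) and 3 (4.57 CPM, 0.942 to 13.4). Csf1r is known for an enhancer in an early intron, but exon positions were not used here, so no tile is assigned to it. The tile chr18:61120001-61121000 had 63 fragments (22.2 CPM, 17.0 to 28.4) in Kupffer-like cells of library 1 and 26 (6.78 CPM, 4.43 to 9.93) in library 2. The tile chr18:61107001-61108000 had 49 (17.2 CPM, 12.8 to 22.8) and 23 (5.99 CPM, 3.80 to 8.995). In both of these tiles library 1 lay above library 2 without overlap, whereas the intervals of the fullest tile overlapped. The fullest Csf1r tile of endothelial-like cells of library 2 was another, chr18:61127001-61128000, with 10 fragments (6.50 CPM, 3.12 to 11.9) and 22 fragments (11.0 CPM, 6.90 to 16.7) in endothelial-like and 25 (8.80 CPM, 5.69 to 12.98) and 27 (7.04 CPM, 4.64 to 10.2) in Kupffer-like cells, whose intervals overlapped, picked after its values were seen. The last 3.86 kb of the window are shared with the neighbour Hmgxb3 and held 12.9% and 13.8% of the Csf1r fragments of Kupffer-like cells.

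The fullest Csf2ra tile, chr19:61227001-61228000, lies in the gene body beside the start and holds 51.8% of the fragments of all filtered cells over the gene. Kupffer-like cells had 132 and 163 fragments there, or 46.4 CPM (38.9 to 55.1) and 42.5 CPM (36.2 to 49.5). Endothelial-like cells had 3 (1.95 CPM, 0.402 to 5.70) and 20 (10.01 CPM, 6.11 to 15.5). Stellate-like cells had 13 (16.7 CPM, 8.87 to 28.5) and 25 (38.1 CPM, 24.6 to 56.2), which overlapped Kupffer-like cells in library 2. The tile of the start itself, chr19:61228001-61229000, had 36 fragments (12.7 CPM, 8.87 to 17.5) and 59 fragments (15.4 CPM, 11.7 to 19.8) in Kupffer-like cells. Endothelial-like cells had 1 (0.650 CPM, 0.0164 to 3.62) and 7 (3.50 CPM, 1.41 to 7.22) there, and stellate-like cells 3 (3.85 CPM, 0.793 to 11.2) and 2 (3.05 CPM, 0.369 to 11.01). On the other side, the tile chr19:61226001-61227000 had 2 and 15 fragments in stellate-like cells, and 22.9 CPM (12.8 to 37.7) in library 2 exceeded the 3.65 CPM (1.99 to 6.12) of Kupffer-like cells there. Stellate-like cells of library 2 thus had most of their Csf2ra fragments in the gene body and 2 in the start tile.

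Csf2rb had different fullest tiles in Kupffer-like and endothelial-like cells. The tile at its lower-coordinate end, chr15:78325001-78326000, had 41 fragments (14.4 CPM, 10.4 to 19.6) and 35 fragments (9.12 CPM, 6.35 to 12.7) in Kupffer-like cells. Endothelial-like cells had 5 (3.25 CPM, 1.05 to 7.58) and 6 (3.003 CPM, 1.10 to 6.54) there. Stellate-like cells had 0 in both libraries, with intervals that reached 4.73 and 5.62 CPM. The tile chr15:78340001-78341000, centred 14.7 kb inside the gene, had 21 fragments (13.6 CPM, 8.44 to 20.9) and 29 fragments (14.5 CPM, 9.72 to 20.8) in endothelial-like cells and 18 (6.33 CPM, 3.75 to 10.0) and 10 (2.61 CPM, 1.25 to 4.79) in Kupffer-like cells. It held 33.9% and 32.6% of the Csf2rb fragments of endothelial-like cells and 8.91% and 6.06% of those of Kupffer-like cells. The end tile held 8.06% and 6.74% in endothelial-like and 20.3% and 21.2% in Kupffer-like cells. The third tile, chr15:78330001-78331000, had 9 and 21 fragments in Kupffer-like and 7 and 9 in endothelial-like cells. Csf2rb2, the near-identical neighbour that lies 20.1 kb away, could share reads with Csf2rb, so levels of both are uncertain to that extent.

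**Figure D3:**
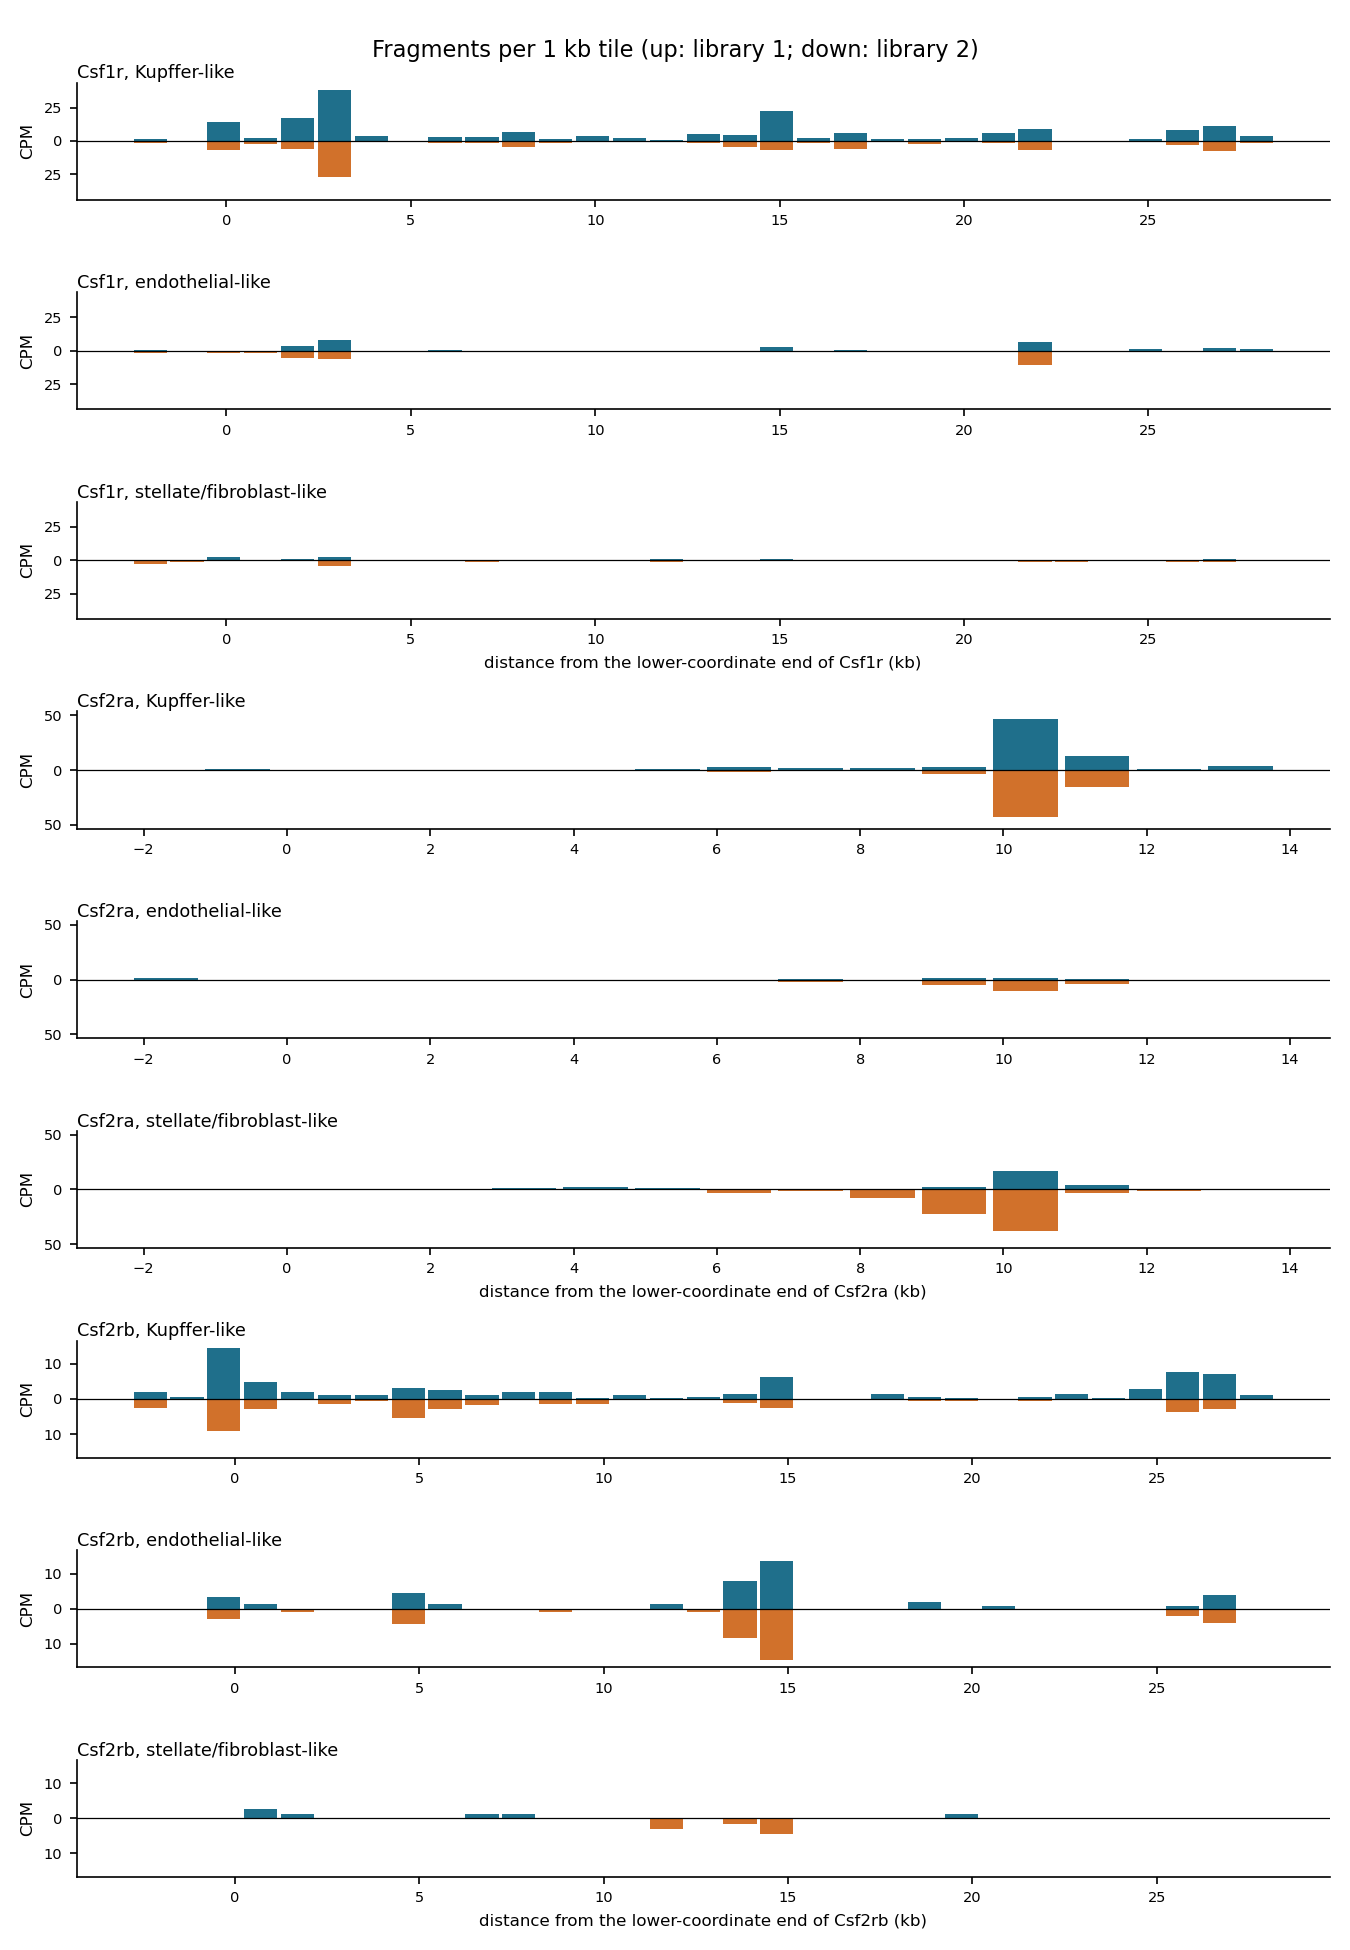
Fragments per 1 kb tile over Csf1r, Csf2ra and Csf2rb in CPM against the distance in kb from the lower-coordinate end of the gene, with library 1 drawn upward and library 2 downward. Kupffer-like cells are highest at 2.93 kb in Csf1r and 10.3 kb in Csf2ra, and in Csf2rb at the lower-coordinate end, while endothelial-like cells are highest at 14.7 kb in Csf2rb.

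Ratios between classes were taken within a library, on a log2 scale relative to the median gene, and a gene with at least 50 fragments counted as higher or lower past a 2-fold difference. In Kupffer-like against endothelial-like cells, 2 of 5 members were higher in both libraries, where 11.2% of all genes tested were higher in library 1 and 11.2% in library 2, and 2 were lower, where 10% and 9.62% of all genes were lower. Csf1r had ratios of 2.86 (2.40 to 3.40) and 1.42 (1.07 to 1.80). Csf2ra had 3.44 (2.59 to 4.58) and 1.55 (1.10 to 2.04). The ligands were lower in Kupffer-like cells, Csf1 at -1.51 (-2.03 to -1.01) and -1.23 (-1.77 to -0.69), and Il34 at -2.35 (-3.03 to -1.74) and -2.20 (-2.81 to -1.64). Csf2rb was past 2-fold in neither library, at 0.80 (0.39 to 1.24) and -0.05 (-0.43 to 0.34). Counted over 1 kb on each side of its fuller end (the table gives no strand for this gene), Csf2rb was at 2.10 from 55 and 7 fragments and 1.84 from 45 and 7. That end was picked by the fragments of all called cells, Kupffer-like cells included, so these values are not independent of the pick. Without cells marked as doublets, Csf2rb over the whole window was at 1.31 in library 1. With classes taken from each cell's own markers, Csf2ra was at 0.98 and 0.67, and in library 2 Csf1 was at 0.65 and Il34 at -0.24, so these were no longer past 2-fold. For Csf1r and Csf2ra the intervals of the 2 libraries did not overlap, and the difference between libraries was not tested.

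Against stellate-like cells, 3 of 5 members were higher in Kupffer-like cells of library 1 (11.9% of all genes) and 2 in library 2 (11% of all genes), and both ligands were lower in both (11.2% and 11.6% of all genes). Il34 had the largest difference, at -4.12 (-4.78 to -3.55) and -4.34 (-4.93 to -3.81). Csf1 had -2.65 (-3.16 to -2.15) and -2.41 (-3.00 to -1.81). Among the receptors, Csf1r had 3.95 (3.05 to 5.26) and 2.59 (1.77 to 3.73), and Csf2rb 2.98 (1.94 to 4.55) and 2.00 (0.96 to 3.58). Csf2ra passed 2-fold in library 1 alone, at 1.25 (0.64 to 1.98) against -0.30 (-0.73 to 0.17) in library 2, where it was 1.79 from 110 and 5 fragments when 1 kb on each side of the start was counted. With classes from own markers, Csf1 was at -0.70 in library 2.

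Endothelial-like against stellate-like cells set the niche classes side by side. Csf1 was lower in endothelial-like cells, at -1.13 (-1.58 to -0.69) and -1.17 (-1.72 to -0.60), and so was Il34, at -1.77 (-2.19 to -1.36) and -2.13 (-2.54 to -1.73). Csf2rb was higher, at 2.18 (1.08 to 3.79) and 2.06 (0.99 to 3.66). Csf1r and Csf2ra had under 50 fragments in library 1, and in library 2 Csf1r was higher, at 1.18 (0.29 to 2.36), and Csf2ra lower, at -1.84 (-2.44 to -1.24). Of the members tested, 1 of 3 was thus higher and 2 lower in library 1, where 7.53% and 8.2% of all genes were, and 2 of 5 higher and 3 lower in library 2, where 8.7% and 9.11% were. Over 1 kb on each side of the start, Csf1 was at -0.90 and -0.30, Csf2rb at 0.51 in library 1 from 7 and 2 fragments, and Csf2ra at -0.72 in library 2 from 11 and 5. With classes from own markers, Csf1r was at 0.47 and Csf2ra at -0.67 in library 2.

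**Figure D4:**
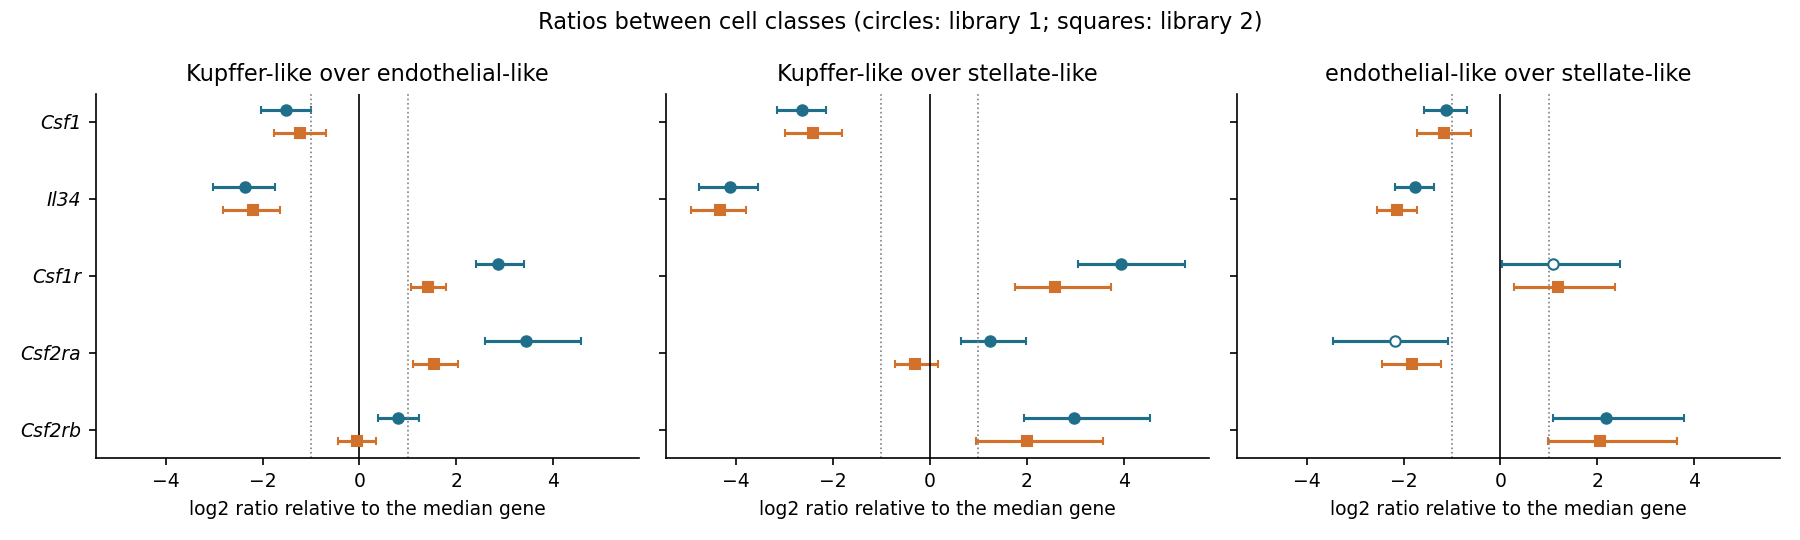
Log2 ratios between classes relative to the median gene for the 5 genes, with exact conditional 95% intervals; circles are library 1, squares library 2, open symbols have under 50 fragments, and dotted lines mark 2-fold. Csf1 and Il34 lie left of the left dotted line in all 3 comparisons, and Csf1r lies right of 0 in all 3.

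Between the libraries, no member reached 2-fold in Kupffer-like cells, where 9.39% of all genes were higher and 2.56% lower in library 2. Csf1r was at -0.57 (-0.77 to -0.38), from 511 fragments in library 1 and 385 in library 2, and Csf2rb at -0.49 (-0.80 to -0.18). With each cell thinned to 5000 fragments, Csf2rb was at -1.23, from 83 and 35 fragments. Csf1, Il34 and Csf2ra had intervals that held 0, at -0.19, 0.14 and 0.13. The summed Kupffer markers were also lower in library 2, at 476 against 890 CPM. The median share of fragments in peaks of these cells was 53.1% against 75.2%, and the part of either in the Csf1r and Csf2rb values was not tested. The median gene itself stood at -0.27 before centring.

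In endothelial-like cells, 1 of 5 members passed 2-fold, where 9.77% of all genes did, 7.18% higher and 2.58% lower in library 2. It was Csf2ra, at 2.00 (1.05 to 3.20), from 10 and 47 fragments. Csf1r was at 0.85 (0.28 to 1.46), from 38 and 78 fragments, Csf2rb at 0.34 (-0.14 to 0.83), Csf1 at -0.50 (-0.98 to -0.03) and Il34 at -0.03 (-0.48 to 0.42). The Kupffer markers summed to 123 and 112 CPM in endothelial-like cells, against 890 and 476 CPM in Kupffer-like cells, and their part in the result was not tested. Without cells marked as doublets Csf2ra was at 1.90 and Csf1r at 1.44. Csf1r was also past 2-fold in cells with 50% or more of their fragments in peaks (1.08), in thinned cells (1.27) and without its top cell (1.06). With classes taken from each cell's own markers, Csf2ra was at 0.59 and Csf1r at -0.11. In stellate-like cells Csf2ra was also higher in library 2, at 1.60 (0.88 to 2.42), as 1 of 3 members tested, where 8.92% of all genes passed and 5.62% were higher. Csf1 stood there at -0.50 (-1.05 to 0.01) and Il34 at 0.29 (-0.08 to 0.65). Stellate-like cells numbered 66 and 27, their median depth was 9704 and 22689 fragments, and their Kupffer markers summed to 140 and 186 CPM. The part of depth or of these markers in the Csf2ra value was not tested.

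**Figure D5:**
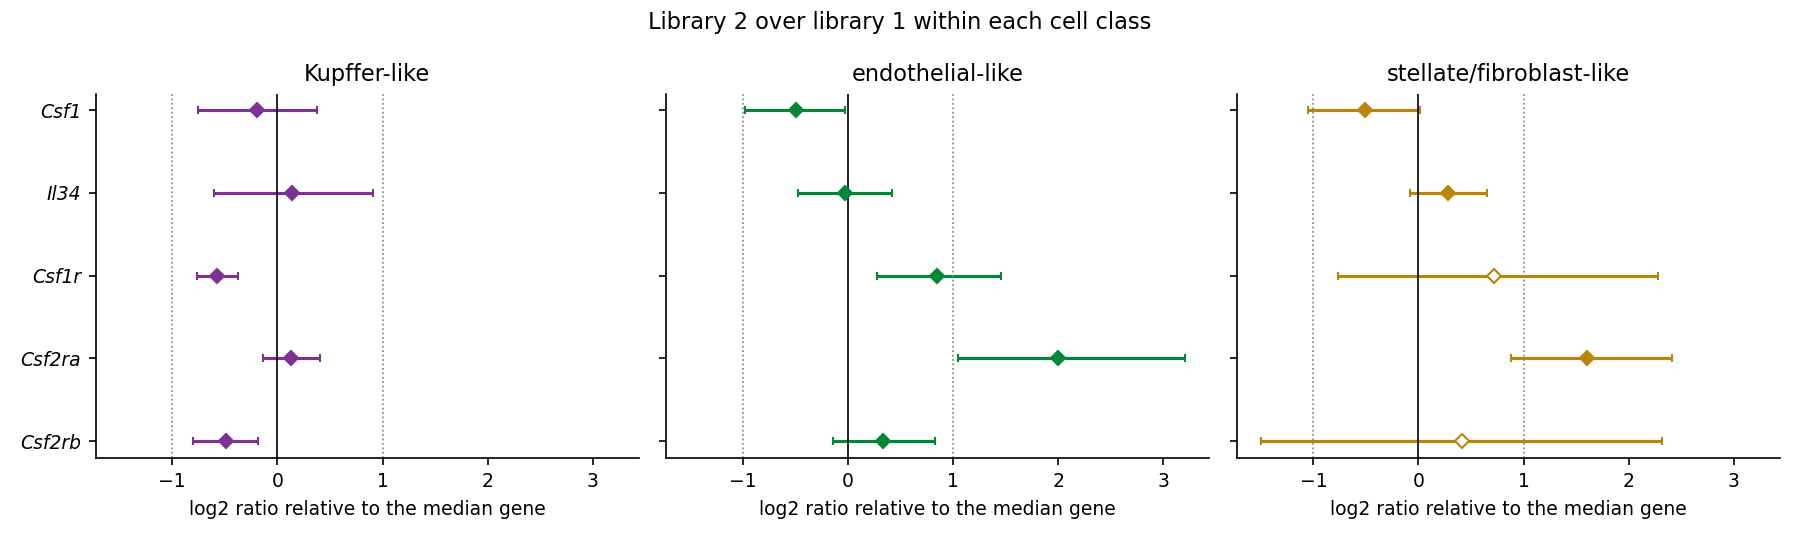
Log2 ratios of library 2 over library 1 relative to the median gene within each class, with exact conditional 95% intervals; open symbols have under 50 fragments and dotted lines mark 2-fold. Csf2ra lies at 2.00 in endothelial-like and 1.60 in stellate-like cells and at 0.13 in Kupffer-like cells.

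Other genes of the pathway were counted in 5 lists, set beside a median over all genes that is 0 by construction. Of 18 adaptors, kinases and brakes of CSF1R signalling, 8 were higher and 0 lower in Kupffer-like than in endothelial-like cells of library 1 (median 0.92), and 5 and 0 in library 2 (median 0.76), where 11.2% of all genes were higher in each library and 10% and 9.62% lower. Tyrobp, which encodes the adaptor DAP12, led with 3.20 and 2.95. Ptpn6, which encodes the phosphatase SHP-1, had 2.62 and 2.01. Fyn, a Src family kinase, was at -0.53 and -0.41. Sos1 (-0.24, library 1) and Dok1 (-0.79, library 2) were the others at the low end. Against stellate-like cells 8 and 6 of the 18 were higher, where 11.9% and 11% of all genes were, with Tyrobp at 3.59 and Ptpn6 at 3.30 in library 1 and Ptpn6 at 1.86 in library 2. Src, the broadly used founding kinase of the family, was the 1 lower gene in both, at -1.54 and -1.05.

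Of 10 kinases and STAT targets downstream of GM-CSF receptors, 0 were higher in Kupffer-like than in endothelial-like cells in either library, and 2 and 3 were lower (medians -0.60 and -0.73). Of all genes, 11.2% were higher in each library, and 10% and 9.62% were lower. Ccnd2, which encodes cyclin D2, was at -2.25 and -1.92. The feedback inhibitor Cish was at -1.99 in library 1, and another, Socs3, was at -1.50 in library 2. The highest were Bcl2l1 at -0.07 and Pim1 at -0.20 in library 1 and Stat5b at -0.08 and Bcl2l1 at -0.15 in library 2. Against stellate-like cells 3 and 2 were lower and 0 higher, beside 11.2% and 11.6% of all genes lower and 11.9% and 11% higher. Of 6 factors known to bind the Csf1r promoter or its enhancer, Spi1, which encodes PU.1, and Runx1 were higher in Kupffer-like than in endothelial-like cells, at 1.98 and 2.84 in library 1 and 1.67 and 1.35 in library 2, as 2 of 6 against 11.2% of all genes. Against stellate-like cells they were at 2.20 and 1.78 in library 1 and at 0.78 and 0.95, under 2-fold, in library 2. Irf8 and Ets2 were the lowest of the list against endothelial-like cells, at 0.43 and 0.33 and at 0.21 and 0.65.

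Among 11 other receptors, 9 had enough fragments. Of these, 3 were higher and 2 lower in Kupffer-like than in endothelial-like cells of library 1, where 11.2% and 10% of all genes were. In library 2 it was 1 and 1, which is near the 11.2% higher and 9.62% lower of all genes there. Csf2rb2 was at 1.26 in library 1. Trem2, a lipid receptor that signals through DAP12, was at 3.17 in library 1, from 57 and 3 fragments. Kit, the receptor for stem cell factor, was lower, at -4.07 and -3.02, and Ptprz1, a reported IL-34 receptor, was at -1.36 in library 1. Pdgfrb, which lies 20.5 kb from Csf1r and encodes a kinase of the same class, was at 2.02 and 1.58, but it was lower in Kupffer-like than in stellate-like cells, at -1.07 and -1.49. Csf3r was at 0.69 and Csf2rb2 at -0.21 in library 2. Against stellate-like cells Csf2rb2 was at 3.52 and 2.70 and Pdgfra at -2.15 and -1.74. Of the 6 other ligands, only Kitl and Flt3l reached 50 fragments in Kupffer-like and endothelial-like cells, and neither passed 2-fold, with Kitl at 0.21 and 0.84 and Flt3l at 0.43 and -0.93.

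Endothelial-like and stellate-like cells also differed in these lists. Kit was higher in endothelial-like cells, at 3.94 and 2.41, and Pdgfrb and Pdgfra were lower, at -3.09 and -3.05 and at -1.90 and -2.08. Src was lower too, at -2.08 and -1.87, and Fyn higher, at 1.30 and 1.29. None of the 10 GM-CSF kinases and targets passed 2-fold, where 15.7% and 17.8% of all genes did in either direction. Between the libraries, 0 of 18 CSF1R adaptors and kinases passed 2-fold in Kupffer-like and 0 of 17 tested in endothelial-like cells, and 0 of the 10 GM-CSF kinases and targets in either, beside 11.9% of all genes in Kupffer-like and 9.77% in endothelial-like cells. Runx1 was at 1.06 in endothelial-like and -0.40 in Kupffer-like cells. Of the 11 other receptors in Kupffer-like cells, 2 were higher and 1 lower in library 2, where 9.39% and 2.56% of all genes were. Ptprz1, at 1.96, and Kit were the higher ones, and Csf2rb2, at -1.07, the lower. In endothelial-like cells 0 of the 7 receptors tested passed 2-fold.

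The genes whose levels ran most alike with each member were sought over 11 points, 1 for each class or cluster and library, among 16471 to 16475 genes. The points share libraries and depth, so the Pearson correlations are descriptions. For Csf1r they were Ifi207 (0.98), Adgb (0.98), Prss30 (0.98) and Pkib (0.97). For Il34 they were Adamtsl2 (0.97), Adamts9 (0.97), Gfpt2 (0.96), Farp1 (0.96) and Synm (0.95). Csf1 came with Snx31 (0.94), Mxra7 (0.92), Trpm1 (0.90), Nes (0.89) and Gucy1b1 (0.89), Csf2ra with Slamf8 (0.94), Ptpro (0.92), Samhd1 (0.92), Tubb4a (0.92) and Itgb8 (0.92), and Csf2rb with Gm13420 (0.97), Slc2a12 (0.97), Atp6ap2 (0.95), Frrs1 (0.94) and Pcp4l1 (0.93). Among the members, Csf1 and Il34 had 0.81, Csf1r and Csf2rb 0.87, and Csf1r and Il34 -0.92, while Csf2ra had 0.56 with Csf1r and 0.14 with Csf2rb, its partner chain.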

How the data were processed

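Fragments of single-nucleus ATAC-seq were analysed in 2 libraries. The table the authors deposited lists unique fragments with raw counts of their read pairs, and a second deposited table gives totals per barcode and the cell calls. The submitters' processing notes list Signac 0.2.4, Seurat, R 3.6.1, Cell Ranger and Cell Ranger ATAC 1.2.0, and build GRCm38.p5, without saying what each was used for. Each unique fragment was counted once. Genes came from a RefSeq table of GRCm38.p6, a patch release with the same coordinates on primary chromosomes.

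Of the called cells, those with 1000 fragments or more in peaks were kept if peaks held 15% of their fragments or more and blacklisted regions no more than 5%. Bins of 5 kb seen in 10 cells, without those within 50 kb of the 5 genes, went through TF-IDF weighting and a decomposition into 30 components (scikit-learn 1.9.0), of which the first was dropped. A graph of 20 neighbours and Leiden clustering at resolution 0.5 (leidenalg 0.10.2) gave 9 clusters. Clusters were named from 146 markers in 17 lists, all matched, scored with pile-ups masked against the other cells of the main library of the cluster. A name needed a score of 0.5, a lead of 0.2 and 3 detected markers, and no more markers of another list than of its own among its top 10 genes. Doublets were marked by an overlap rule or by simulated pairs (scanpy 1.11.5), 92 and 95 cells in all, and kept.

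Fragments overlapping a gene body and 2 kb on each side were summed per class and library and scaled to all its fragments (CPM), with exact Poisson intervals. Tiles used fragment midpoints. Log2 ratios had 0.5 added to both counts and exact conditional binomial intervals, and were centred on the median gene. The ratio calculation was checked on simulated counts. Named genes were the 5 members, the 2 highest and 2 lowest of each pathway list in a comparison, the 5 genes most alike to each member, and the 3 fullest tiles, and 1 gene that this rule names is not reported here. The promoter table held 2 of the 5 members, and all 51 pathway genes were matched. The members and lists were chosen with earlier results of these data known. Alternatives were 13 planned ones and 2 chosen after seeing the data.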

Additional observations from a re-analysis of the deposited data

Results flagged for a closer look

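Csf1r differed between libraries in opposite directions in 2 classes. Relative to the median gene, library 2 over library 1 was -0.57 on the log2 scale (-0.77 to -0.38) in Kupffer-like cells and 0.85 (0.28 to 1.46) in endothelial-like cells. The interval of each lay on its own side of 0, and the difference between the classes was not tested, since there is 1 library per suffix. Over the settings tried, the Kupffer-like value ran from -0.65 to -0.25. The endothelial-like value was positive in all settings except with classes taken from each cell's own markers, where it was -0.11 (85 against 80 fragments). By own markers, 131 and 152 cells of library 1 and library 2 were endothelial-like, of which 100 and 89 were so by cluster. From the unnamed cluster 2 came 18 cells in each library. The cell with most Csf1r fragments lay in Kupffer-like cluster 1 in library 1 (10 of 80 fragments) and in Kupffer-like cluster 0 in library 2 (6 of 85). The part of such cells in the value was not tested.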

How the results depend on the processing

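No paired analysis was possible because each suffix is 1 library and no label gives replicate numbers, and for the same reason no replicate could be left out. Counts of members past 2-fold are given in the order library 1, library 2. They depend also on how many members had enough fragments, so a count of 0 can come from members that were not tested. The share of all genes past 2-fold was not computed for the alternatives, so the counts describe the settings only. With cells thinned to 5000 fragments, fewer members reached 50 fragments, and 2 and 2 passed for Kupffer-like against endothelial-like, 3 and 1 against stellate-like, 0 and 0 for endothelial-like against stellate-like cells, and between libraries 1 in Kupffer-like and 0 in endothelial-like cells. Counting 1 kb on each side of the gene start (the fuller end where no strand is given) also left fewer members, with 3 and 1 for Kupffer-like against stellate-like, 0 and 0 for endothelial-like against stellate-like, and 0 between libraries in endothelial-like cells. With classes from each cell's own markers, 1 passed for Kupffer-like against endothelial-like and 3 for endothelial-like against stellate-like cells of library 2, and between libraries 2 in Kupffer-like cells (Csf1 at 1.29, Il34 at 1.42) and 0 in endothelial-like cells. For endothelial-like against stellate-like cells, counting insertions or setting no minimum gave 5 in library 1, and leaving out doublets gave 3 in library 2. Between libraries in endothelial-like cells, gene bodies without flanks gave 0 and leaving out the top cell of each member gave 2.

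Of 565 values of single members under alternatives, 509 lay within the interval reported and 49 outside it, and 7 turned direction where the reported interval left out 0. A further 15, counted among the 509 and 49, changed sign where that interval held 0. With classes by own markers, the 7 were Csf1 in Kupffer-like over endothelial-like cells of library 2 (0.65, where 1 cell of cluster 2 held 29 of 93 fragments), Csf2ra in endothelial-like over stellate-like cells of library 1 (0.40), and, between libraries, Csf2rb in Kupffer-like (0.12) and Csf1r in endothelial-like cells (-0.11). At the gene start they were Il34 in Kupffer-like over endothelial-like cells (0.064 from 4 and 2 fragments, 0.46 from 3 and 1) and Csf1r in endothelial-like over stellate-like cells of library 1 (-3.40, from 0 and 2). Of the 10 pairs of gene and library, the class with the highest level was as reported in 7 to 10 over all alternatives. Keeping cells whose share in peaks was 50% or more left 18 stellate-like cells of library 2, too few for a ratio. With cluster 5 counted as Kupffer-like, the counts of library 1 were 4 against endothelial-like and 5 against stellate-like cells, as reported. Stellate-like cells had 6 to 22 fragments of some receptors, and endothelial-like cells of library 1 had 10 of Csf2ra.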

Other observations

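Cells without a name carried the receptors too. Cluster 5, with 102 cells of library 1, led on Kupffer markers but had Klrk1, a marker of NK cells, among its top genes and was left unnamed. Its levels were 167 CPM (152 to 183) for Csf1r, 67.2 CPM (58.0 to 77.4) for Csf2ra, 53.9 CPM (45.7 to 63.1) for Csf2rb, 18.5 CPM (13.9 to 24.2) for Csf1 and 11.2 CPM (7.66 to 15.8) for Il34, and the intervals of all 5 genes overlapped those of Kupffer-like cells of library 1. Cluster 2, whose top genes included Flt3, Btla and Napsa, had 54 and 89 cells. Csf2ra stood there at 83.7 CPM (64.6 to 107) and 88.8 CPM (76.3 to 103), Csf1r at 116 CPM (93.2 to 143) and 76.4 CPM (64.9 to 89.4), and Il34 at 7.73 and 12.8 CPM. Csf1 in cluster 2 was 12.9 CPM in library 1 and 63.6 CPM in library 2, where 1 cell held 50 of 129 fragments, and 30.2 CPM with pile-ups masked. The 42 cells of cluster 7 in library 2 held 3586133 of the 12122602 fragments of filtered cells there. Their median share in peaks was 23.8%. Csf1r stood there at 57.4 CPM (49.9 to 65.8), Csf2ra at 36.5 CPM, Csf2rb at 38.5 CPM, Csf1 at 29.8 CPM and Il34 at 31.0 CPM.

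Barcodes not called as cells gave 67.4 CPM (56.3 to 80.1) of Csf1r in library 1 and 30.2 CPM (26.8 to 33.9) in library 2, against 122 and 68.8 CPM in called cells. For Csf2ra the values were 37.1 and 16.3 CPM against 54.8 and 54.6 CPM. Il34 ran the other way in library 2, with 59.8 CPM (55.0 to 64.9) in barcodes not called and 31.6 CPM (28.5 to 34.9) in called cells, and 1 barcode held 80 of its 567 fragments. In library 1 Il34 was at 28.7 and 31.3 CPM.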
